A study of Saccharomyces cerevisiae with 24 samples.

Results

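ARO9, ARO10 and ARO80 are genes of aromatic amino acid breakdown in budding yeast, Saccharomyces cerevisiae. The 3 genes were taken by name from the 7036 entries of the RNA count files. ARO9 and ARO10 had drawn attention because they were among the most reduced genes of untreated rph1 deletion cells, and ARO80 was added because it encodes their activator. The members were thus chosen by their log2 fold change in untreated deletion against untreated wild type, which is given below as a description.

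Yeast that use phenylalanine, tyrosine or tryptophan as a nitrogen source break them down through the Ehrlich pathway. Aro9, the aromatic aminotransferase II, removes the amino group, and Aro10, a 2-oxo acid decarboxylase, removes the carboxyl group of the resulting oxo acid. The aldehyde that remains is reduced to a fusel alcohol, such as the rose-scented phenylethanol, or oxidised to a fusel acid. Aro80 is a zinc cluster activator that binds the ARO9 and ARO10 promoters and switches them on when aromatic amino acids are present. Genes for poor nitrogen sources are also under the GATA activators Gln3 and Gat1, which the growth regulator TORC1 holds back and which rapamycin, an inhibitor of TORC1, releases. Rph1 is a JmjC histone demethylase and zinc finger protein, known mainly as a repressor of transcription.

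RNA-seq of total RNA was made from strain BY4741 in 4 groups of 2 libraries: wild type untreated, wild type with rapamycin, rph1 deletion untreated and rph1 deletion with rapamycin. All groups share the BY4741 background, and neither the dose and duration of rapamycin nor the number of deletion clones is given in the labels. Chromatin immunoprecipitation (ChIP) of FLAG-tagged Rph1, in cells labelled wild type, was available as a list of enriched genes for each condition, untreated and rapamycin. ChIP of RNA polymerase II was not analysed here. Libraries held 18037199 to 24769193 counts. RPH1 had 1057 to 2107 reads in the wild type libraries and 30 to 82 in the deletion libraries, and reads of LEU2, URA3 and MET17, markers deleted in BY4741, numbered 0 or 1 in every library. HIS3, which BY4741 carries with a partial deletion, had 1391 to 8201 reads. The mating type a gene STE2 had 9479 to 21944 reads, against 39 to 95 for the alpha gene STE3 in the wild type libraries and 230 to 360 in the deletion libraries. STE3 thus differed between the strains, and its part in the results was not tested. Whether replicates were separate cultures is not given in the labels, so a p-value refers only to the spread between these libraries, which may be technical.

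ARO9 (YHR137W) lies on chromosome VIII, 375709 to 377250 on the plus strand of sacCer3. ARO10 (YDR380W) lies on chromosome IV, 1234218 to 1236125, and ARO80 (YDR421W) on the same chromosome, 1312040 to 1314892, also on the plus strand. Each is a single protein-coding span, of 1542, 1908 and 2853 bases. All 3 passed the filter on low counts, as did 6169 of the 7036 entries.

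Both enzyme genes had the same order of groups, highest in wild type with rapamycin and lowest in the untreated deletion, while ARO80 stood apart in wild type with rapamycin and was close to level in the other 3 groups. Levels are given as CPM per kb, read counts relative to the scaled library size and to the gene's length, so that genes can be compared. ARO9, in libraries 1 and 2 of each group, was at 58.8 and 41.5 CPM per kb in untreated wild type, 17.7 and 20.4 in the untreated deletion, 89.3 and 107 in rapamycin-treated wild type, and 30.8 and 29.6 in the deletion with rapamycin. ARO9 in the rapamycin-treated deletion stayed below both untreated wild type libraries. ARO10 was at 118 and 73.6 CPM per kb in untreated wild type, 36.0 in each untreated deletion library, 236 and 303 in rapamycin-treated wild type, and 90.9 and 90.0 in the deletion with rapamycin. The rapamycin-treated deletion thus lay inside the range of the untreated wild type for ARO10, and below it for ARO9. ARO80 was at 18.3 and 18.8 CPM per kb in untreated wild type, 16.6 and 17.9 in the untreated deletion, 26.8 and 25.8 in rapamycin-treated wild type, and 18.7 and 18.8 in the deletion with rapamycin. The activator gene was thus high only in the wild type libraries with rapamycin, among these 4 groups.

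**Figure D1:**
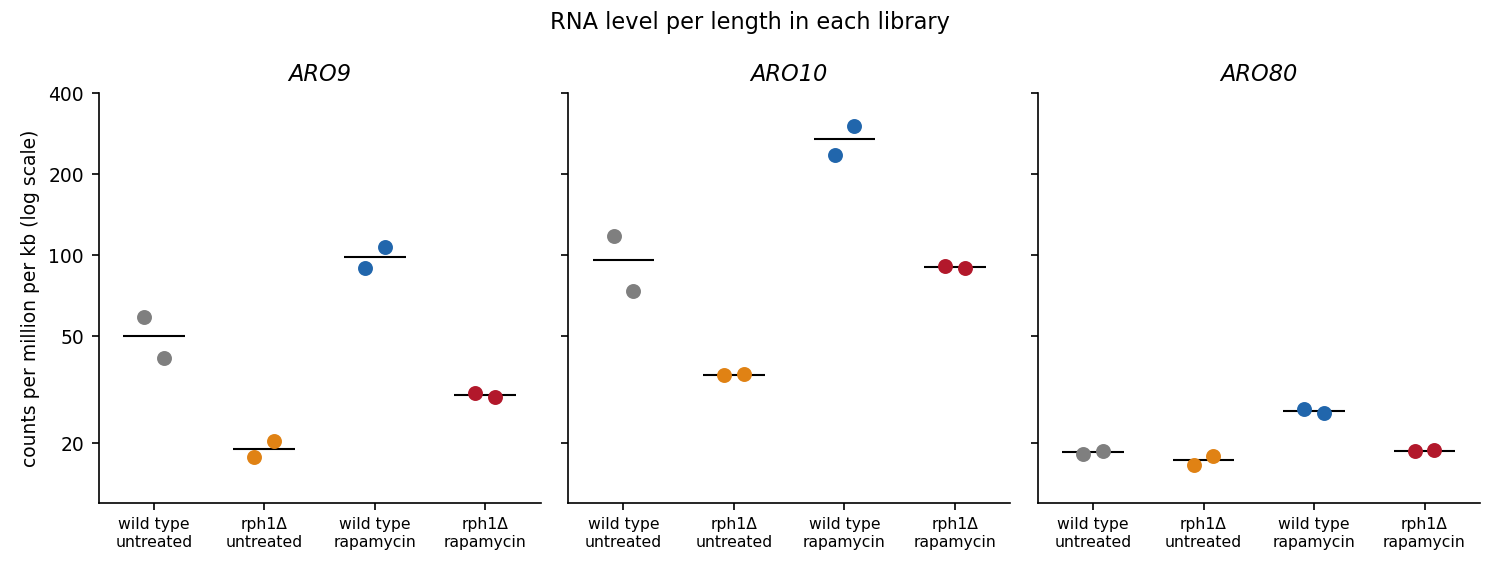
Level of ARO9, ARO10 and ARO80 in CPM per kb in each library (points) with the mean of each group (line) on a log axis, for wild type and rph1 deletion, untreated and with rapamycin. ARO10 runs from 36.0 in the untreated deletion libraries to 303 in a wild type library with rapamycin, and ARO80 only from 16.6 to 26.8.

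In the untreated wild type, ARO9 averaged 50.2 ± 12.2 CPM per kb (SD, n = 2) and ARO10 averaged 95.8 ± 31.4, while ARO80 averaged 18.5 ± 0.342. ARO10 was the highest of the 3 in every group. In the untreated deletion, ARO9 (19.0 ± 1.89) and ARO80 (17.2 ± 0.904) differed by no more than their spread as counted, and ARO10 was at 36.0 ± 0.0534. The level of ARO9 relative to other genes depends on how reads in an overlap were counted, described below. Among 5760 genes with a known length, the level of ARO9 stood at percentile 49.6 in untreated wild type, 20.2 in the untreated deletion, 69.1 in rapamycin-treated wild type and 31.1 in the deletion with rapamycin. The percentile of the ARO10 level was 69.6 in untreated wild type and 87.9 in wild type with rapamycin.

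An entry on the opposite strand, YHR137C-A (chromosome VIII, 375738 to 376388), covers 651 bases or 42.2% of ARO9 and had 0 reads in every library. The use of strand in counting is not stated, so reads of ARO9 and of this entry cannot be told apart. Had reads in the shared stretch been left uncounted, the level of ARO9 over the other 891 bases would be 86.8 ± 21.2 CPM per kb in untreated wild type, 32.9 ± 3.27 in the untreated deletion, 170 ± 21.8 in rapamycin-treated wild type and 52.2 ± 1.47 in the deletion with rapamycin. Comparisons of ARO9 between groups use the same stretch in each library.

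All 3 genes rose with rapamycin in the wild type, the decarboxylase gene most and the activator gene least. ARO9 went from 1414 and 1392 reads to 3097 and 3467, ARO10 from 3509 and 3052 to 10144 and 12148, and ARO80 from 813 and 1164 to 1719 and 1546. In edgeR's quasi-likelihood test with Benjamini-Hochberg adjustment over the 6169 genes, ARO10 rose 2.82-fold (log2 fold change 1.50 ± 0.21, SE; edgeR adjusted p = 0.000391). ARO9 rose 1.96-fold (0.97 ± 0.17; edgeR adjusted p = 0.00112) and ARO80 rose 1.42-fold (0.51 ± 0.08; edgeR adjusted p = 0.000799). The untreated wild type libraries are also part of the comparison that chose ARO9 and ARO10. A high level there favours being chosen and makes the rise smaller, so the choice bears on these sizes. All 3 of the genes rose, in a comparison in which 34.8% of tested genes rose and 33.9% fell. The treatment moved most of the transcriptome, and ARO10, ARO9 and ARO80 were 519th, 961st and 1794th from the highest log2 fold change of the 6169 genes. Fold changes compare shares of a scaled library, and changes in the RNA content of a cell are not measured by them.

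In the rph1 deletion, both enzyme genes were higher with rapamycin than untreated, from lower levels, and ARO80 was not called. The untreated deletion libraries are those in which ARO9 and ARO10 were found to be low, which favours a rise, so the changes of these 2 genes are given with no p. ARO10 went from 1414 and 1255 reads to 3882 and 4227, which is 2.51-fold (log2 fold change 1.33 ± 0.21). ARO9 went from 562 and 573 reads to 1062 and 1123, which is 1.59-fold (0.67 ± 0.17). ARO80, with 976 and 931 reads untreated and 1191 and 1323 with rapamycin, differed by 0.12 ± 0.08 (edgeR adjusted p = 0.237). In this comparison 28.6% of tested genes rose. ARO80 passed the threshold when libraries were scaled by their totals alone (0.45; edgeR adjusted p = 0.00291), a scaling that moves the median of all genes to 0.321.

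The log2 change with rapamycin in the deletion, less the one in wild type, was -0.31 ± 0.24 for ARO9, -0.17 ± 0.30 for ARO10 and -0.39 ± 0.12 for ARO80. This difference, called for 13.1% of tested genes, uses the libraries through which the genes were chosen and is given as a value only.

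**Figure D2:**
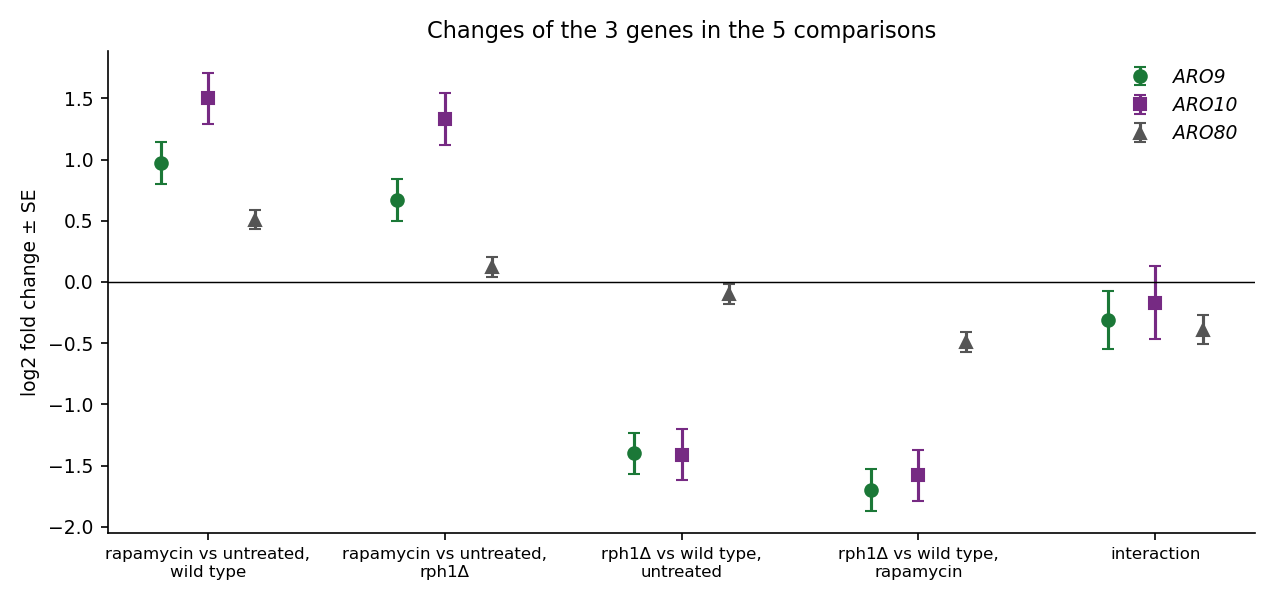
Log2 fold change ± SE of ARO9, ARO10 and ARO80 in each comparison of the 4 RNA groups, where the interaction is the rapamycin change of the deletion less that of the wild type. With rapamycin all 3 genes lie below 0 in deletion against wild type, and the rapamycin change of ARO80 is 0.51 in the wild type and 0.12 in the deletion.

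With rapamycin in both genotypes, all 3 genes were lower in the rph1 deletion than in the wild type. Its fold changes set the rapamycin libraries of the genotypes side by side, and the untreated libraries, which chose the genes, enter only through the shared scaling and estimate of spread. Reads of ARO9 were 1062 and 1123 in the deletion against 3097 and 3467 in the wild type, and the level was 3.25-fold lower (-1.70 ± 0.17; edgeR adjusted p = 0.000983). Reads of ARO10 were 3882 and 4227 against 10144 and 12148, and its level was 2.98-fold lower (-1.58 ± 0.21; edgeR adjusted p = 0.00223). For both enzyme genes the deletion libraries lay close together and far below the wild type libraries. ARO80, at 1191 and 1323 reads against 1719 and 1546, was 1.4-fold lower (-0.49 ± 0.08; edgeR adjusted p = 0.00453). Fitted on the 4 rapamycin libraries alone, the differences of ARO9, ARO10 and ARO80 were -1.69, -1.57 and -0.48 (edgeR adjusted p = 0.000239, 0.000399 and 0.00517). Of the tested genes 13.5% fell in this comparison and 14.4% rose. ARO9 and ARO10 had the 27th and 33rd lowest log2 fold change of the 6169 genes, and ARO80 the 700th. The decrease of ARO80 missed the threshold without deletion rapamycin replicate 1 (-0.45; edgeR adjusted p = 0.0519), and over its other alternatives the decrease was called.

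The untreated comparison, which chose the genes, is given for its size. Reads of ARO9 were 562 and 573 in the deletion against 1414 and 1392 in the wild type, a log2 difference of -1.40 ± 0.17 or 2.63-fold. Reads of ARO10 were 1414 and 1255 against 3509 and 3052, a log2 difference of -1.41 ± 0.21 or 2.66-fold. These were the 22nd and 21st lowest log2 fold changes of the 6169 genes. ARO80 differed by -0.10 ± 0.08, with 976 and 931 reads against 813 and 1164. The libraries of the genotypes did not overlap for any of the 3 genes once scaled, as for the 30.3% of tested genes that were lower without overlap, and nothing is read from this count.

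Reads of ARO10 per read of ARO9 were higher in the rapamycin libraries of both genotypes. The ratio of ARO10 to ARO9 reads within a library does not depend on the scaling, and it was examined after the values had been seen. It was 2.48 and 2.19 in untreated wild type, 2.52 and 2.19 in the untreated deletion, 3.28 and 3.50 in rapamycin-treated wild type, and 3.66 and 3.76 in the deletion with rapamycin. Every rapamycin library lay above every untreated library. The mean log2 ratio was 1.83 ± 0.09 (SD, n = 4) with rapamycin and 1.23 ± 0.11 (n = 4) untreated, a difference of 0.60, and leaving out any 1 library kept it between 0.57 and 0.64. The difference was 0.54 within the wild type and 0.66 within the deletion. Between genotypes the mean log2 ratio differed by 0.01 untreated, under the spread of 0.13 and 0.14 (SD, n = 2) within the groups. With rapamycin it was 1.89 ± 0.03 in the deletion and 1.76 ± 0.07 in the wild type (n = 2), and both deletion libraries lay above both wild type libraries. No p is given for the ratio, since it joins genes chosen together and was picked after its values were seen.

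**Figure D3:**
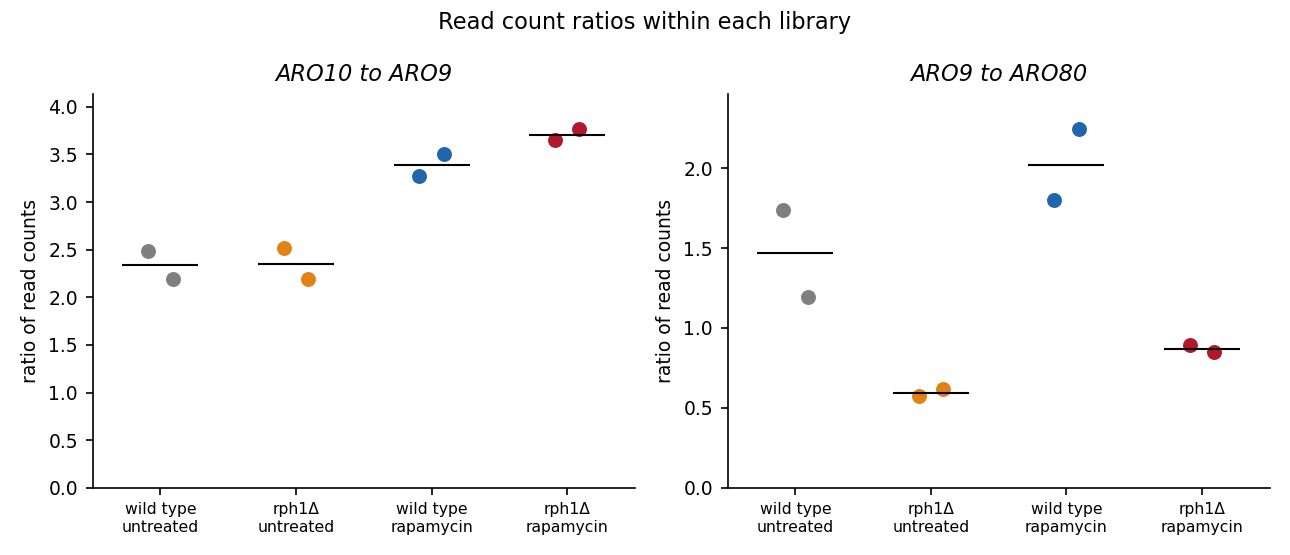
Ratio of reads of ARO10 to ARO9, and of ARO9 to ARO80, in each library (points) by group, with group means (lines). The ARO10 to ARO9 ratio is 2.19 to 2.52 in the 4 untreated libraries and 3.28 to 3.76 in the 4 libraries with rapamycin, and the ARO9 to ARO80 ratio is 0.576 to 0.892 in the 4 deletion libraries and 1.20 to 2.24 in the 4 wild type libraries.

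FLAG-Rph1 was listed at both enzyme genes with rapamycin and at neither untreated. The authors' deposited table gives each listed gene a fold enrichment, whose control is not stated, and the start and end of the gene and not of a peak. In it ARO10 had a fold enrichment of 58.5 with rapamycin, rank 165 of 705 listed genes. ARO9 had a fold enrichment of 30.4 in the authors' deposited table, rank 294 of 705, and the overlapping entry YHR137C-A carried the same value. ARO80 was in neither list. Thus 2 of the 3 genes were listed with rapamycin, against 9.79% of the 7036 entries, and 0 of 3 untreated, against 6.61%. There is 1 list per condition, so the difference between conditions has no replicate check, and a gene that is not listed has no value.

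**Figure D4:**
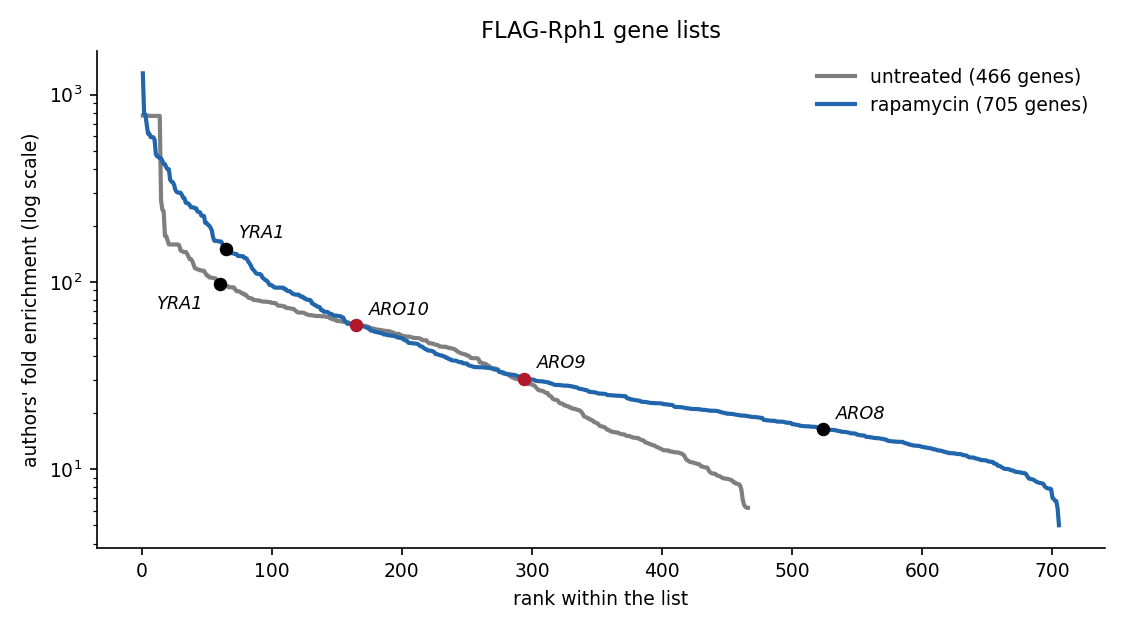
FLAG-Rph1 fold enrichment, on a log axis, by rank in the authors' deposited lists for untreated cells (466 genes) and rapamycin (705 genes), with ARO9 and ARO10 (red), ARO8 and the ARO10 neighbour YRA1 (black) marked. ARO9 and ARO10 appear only in the rapamycin list, at 30.4 and 58.5, and YRA1 in both.

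Of the 12 annotated neighbours, taken as 2 on each side of each gene, only YRA1 was found in the FLAG-Rph1 lists. Names from the annotation used to find neighbours matched 346 of the 466 genes listed untreated and 579 of the 705 with rapamycin. The tRNA gene YNCD0028W, before ARO80, may thus be listed under another name, so nothing is read from its absence. YRA1, an mRNA export factor gene that starts 432 bases beyond the end of ARO10, had an enrichment of 97.0 untreated and 150 with rapamycin in the authors' deposited table. A source at YRA1 that reaches into ARO10 cannot be told apart from one at ARO10 with values per gene. The RNA of YRA1 differed by -0.09 ± 0.10 between genotypes with rapamycin (edgeR adjusted p = 0.538). By the same test 0 of the 11 neighbours that could be tested were called in deletion against wild type with rapamycin, where 28% of tested genes were called, and their log2 fold changes ran from -0.29 to 0.77 (smallest edgeR adjusted p = 0.0564). With rapamycin in the wild type, 4 of the 11 rose and 2 fell, against 34.8% and 33.9% of all tested genes. In untreated deletion against wild type 0 of the 11 were called, where 4.88% of tested genes were higher and 2.53% lower. Their log2 fold changes ran from -0.31 to 1.30. The highest was that of SPL2, the neighbour before ARO9 (1.30 ± 0.33; edgeR adjusted p = 0.0552).

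Genes that were listed only with rapamycin, as ARO9 and ARO10 were, numbered 414 or 5.88% of the entries. Of the 385 among them that were tested, 150 or 39% were lower in the deletion with rapamycin and 13 or 3.38% were higher, against 13.5% and 14.4% of all tested genes. Their median log2 fold change was -0.33, against 0.00 over all tested genes. Genes listed in both conditions went the other way there, with 11.2% lower and 31.4% higher of 258 tested. So did genes listed only untreated, with 1.2% lower and 53.9% higher of 167 tested. In the wild type, 254 or 66% of these 385 genes rose with rapamycin, against 34.8% of all tested genes. Both comparisons share the wild type libraries with rapamycin. In the untreated comparison, 32 of the 385 were lower in the deletion, or 8.31%, against 2.53% of all tested genes. The 385 genes include ARO9 and ARO10, which were chosen for low levels in this comparison, and the counts here do not leave them out.

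ESBP6, which encodes a protein similar to monocarboxylate permeases, was put in 1 list with the 3 genes. Its level was 21.5 and 26.8 CPM per kb in untreated wild type, 15.0 and 18.4 in the untreated deletion, 38.9 and 51.7 in rapamycin-treated wild type, and 26.9 and 33.7 in the deletion with rapamycin. ESBP6 rose with rapamycin in the wild type (0.90 ± 0.19; edgeR adjusted p = 0.00294) and in the deletion (0.86 ± 0.19; 0.0054). With rapamycin it was lower in the deletion by a narrow margin (-0.58 ± 0.18; edgeR adjusted p = 0.0498). The call was lost with the libraries scaled by RLE (0.0525) or by totals (0.0991), and without either deletion untreated library (0.0513 and 0.0516), wild type rapamycin replicate 2 (0.271), deletion rapamycin replicate 1 (0.271) or deletion rapamycin replicate 2 (0.0681). FLAG-Rph1 did not list ESBP6.

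ARO8 encodes aromatic aminotransferase I, which serves the synthesis of the amino acids as well as their breakdown. Its level was 398 and 384 CPM per kb in untreated wild type, 378 and 322 in the untreated deletion, 522 and 590 in rapamycin-treated wild type, and 412 and 343 in the deletion with rapamycin. It rose in the wild type (0.51 ± 0.14; edgeR adjusted p = 0.0102), and in the deletion its change was 0.11 ± 0.13 (edgeR adjusted p = 0.508), which passed when libraries were scaled by their totals alone (0.44; 0.0142). With rapamycin ARO8 was lower in the deletion (-0.56 ± 0.14; edgeR adjusted p = 0.0191), a call lost without wild type rapamycin replicate 2 (0.104) or deletion rapamycin replicate 2 (0.138). The authors' deposited table listed ARO8 only with rapamycin, at a fold enrichment of 16.3. Per length, ARO8 averaged 391 ± 10.1 CPM per kb in untreated wild type and 350 ± 39.5 in the untreated deletion (SD, n = 2), far above the 50.2 and 19.0 of ARO9.

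Across the other 48 genes of the pathway lists, which hold further enzymes, transporters, GATA factors and aromatic synthesis, 25 rose and 15 fell with rapamycin in the wild type, where 34.8% and 33.9% of all tested genes did so. Their median log2 fold change was 0.39, against 0.02 over all tested genes. In the deletion with rapamycin 5 of the 48 were higher and 15 were lower than in the wild type, against 14.4% and 13.5% of all tested genes, with a median of -0.10 against 0.00. The shares of all tested genes given here are also those against which the counts of each list below are to be read. The count of 15 fell to 9 without wild type rapamycin replicate 2 and to 7 without either deletion rapamycin library, and the count of 5 lay between 2 and 10 over the alternatives. In the untreated comparison 0 of the 48 were higher and 2 were lower in the deletion, PDR12 (-0.46 ± 0.11; edgeR adjusted p = 0.0388) and ATF1 (-0.80 ± 0.13; 0.0147), and each call was lost without either deletion untreated library or with only the groups compared (0.0741 to 0.174). The call of PDR12 was also lost under scaling by totals (0.0675) and without any 1 of the rapamycin libraries or wild type untreated replicate 2 (0.0713 to 0.134). Of the tested genes 4.88% were higher and 2.53% lower there.

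**Figure D5:**
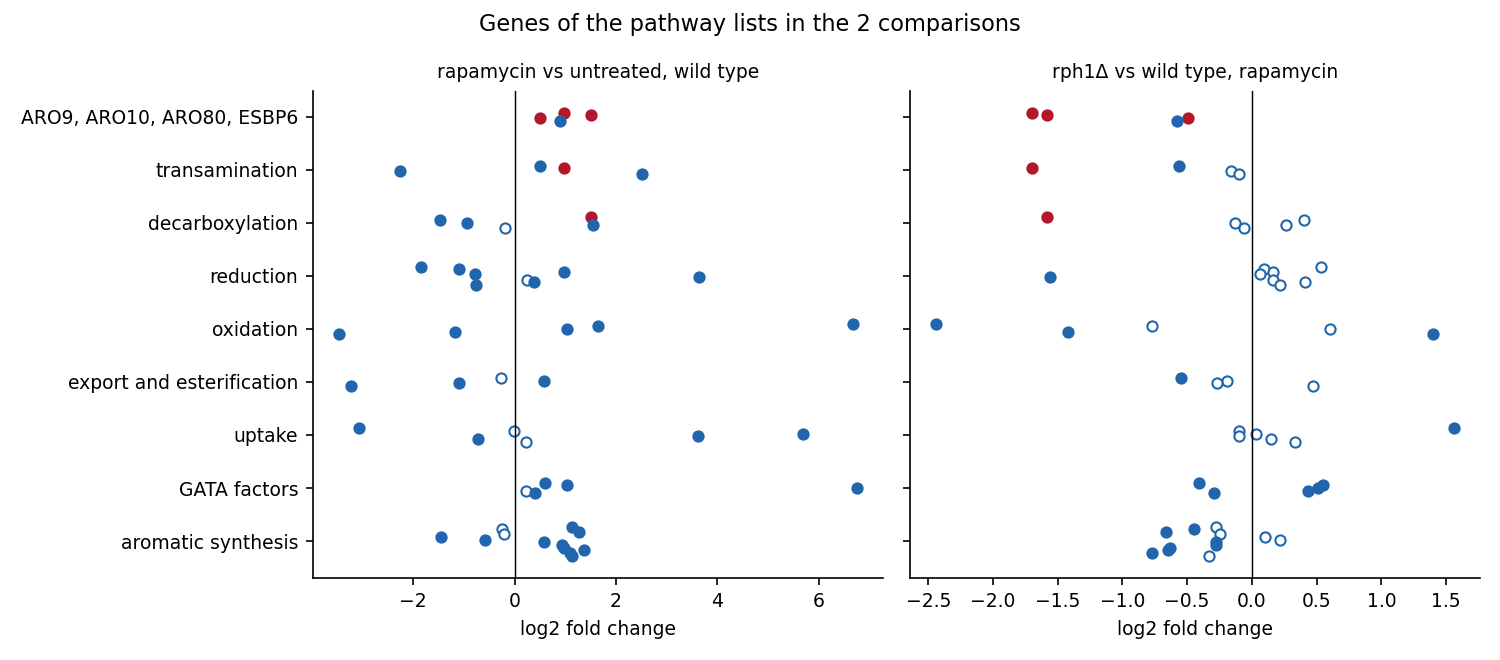
Log2 fold change of each gene of the 9 pathway lists with rapamycin in the wild type and for deletion against wild type with rapamycin, with filled points for genes called by edgeR and ARO9, ARO10 and ARO80 in red. ARO9 and ARO10 lie lower than the other members of their transamination and decarboxylation lists in deletion against wild type, at -1.70 and -1.58.

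In the transamination step, the branched-chain aminotransferase genes moved apart in the wild type: BAT2, for the cytosolic enzyme, rose (2.52 ± 0.11; edgeR adjusted p = 1.49e-06) and BAT1, for the mitochondrial one, fell (-2.27 ± 0.11; 2.21e-06). Between genotypes with rapamycin, BAT2 differed by -0.10 ± 0.10 (edgeR adjusted p = 0.53). Of the 4 decarboxylase genes other than ARO10, PDC1, for the major pyruvate decarboxylase, fell with rapamycin in the wild type (-1.47 ± 0.20; edgeR adjusted p = 0.000308). PDC5, for a minor isoform, also fell (-0.93 ± 0.11; edgeR adjusted p = 0.000172), and PDC6, another minor isoform, rose (1.55 ± 0.20; 0.000219). PDC5 averaged 14.4 CPM per kb in untreated wild type, against 7193 for PDC1. Whether the fall of PDC5 is separate from that of PDC1, if reads were split between similar copies, was not tested. In deletion against wild type with rapamycin 0 of the 4 decarboxylase genes other than ARO10 were called, where ARO10 was 2.98-fold lower.

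In the steps after Aro10, reads could be split between near-identical copies, as between ALD2 and ALD3, so values of single genes are uncertain. Of the 8 alcohol dehydrogenase genes, which make the fusel alcohols, 3 rose and 4 fell with rapamycin in the wild type, against 34.8% and 33.9% of all tested genes. In the rapamycin-treated deletion, where 13.5% of all tested genes were lower, only ADH5 of the 8 was lower (-1.56 ± 0.16; edgeR adjusted p = 0.00108). ADH1, the main fermentative form, fell with rapamycin (-1.85 ± 0.19; edgeR adjusted p = 6.89e-05). Of the 5 aldehyde dehydrogenase genes, which make the fusel acids, 3 rose and 2 fell with rapamycin in the wild type, and 2 were lower and 1 was higher in the deletion with rapamycin. ALD2 went from 21.2 and 14.4 CPM per kb in untreated wild type to 1801 and 1826 with rapamycin, and reached 349 and 318 in the deletion with rapamycin. The wild type rise was 6.68 ± 0.22 and the genotype difference with rapamycin -2.44 ± 0.18 (edgeR adjusted p = 6.39e-07 and 0.000584). ALD6 moved the other way, with a change of -3.47 ± 0.23 in the wild type and a higher level in the deletion with rapamycin (1.40 ± 0.21; edgeR adjusted p = 6.22e-06 and 0.00325). ALD5 was also lower in the deletion with rapamycin (-1.42 ± 0.27; edgeR adjusted p = 0.00719), a call lost without deletion rapamycin replicate 1 (0.0634).

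In export and esterification, PDR12 encodes the pump for weak organic acids and ATF1 and ATF2 the acetyltransferases that turn fusel alcohols into esters. ATF2 fell with rapamycin in the wild type (-3.23 ± 0.18; edgeR adjusted p = 2.76e-06), as did ATF1 (-1.09 ± 0.14; 0.000187). PDR12 was lower in the deletion with rapamycin (-0.55 ± 0.11; edgeR adjusted p = 0.00781), a call lost without either deletion rapamycin library (0.0517 and 0.0545). Among the permease genes for uptake, the general amino acid permease gene GAP1 (5.70 ± 0.23; edgeR adjusted p = 1.14e-06) and AGP1 (3.61 ± 0.24; 6.62e-06) rose in the wild type and the tyrosine permease gene TAT1 fell (-3.07 ± 0.28; 3.28e-05). GAP1 and AGP1 differed by 0.03 ± 0.18 and -0.10 ± 0.22 between genotypes with rapamycin (edgeR adjusted p = 0.924 and 0.781), while TAT1 was higher in the deletion (1.56 ± 0.27; 0.00493). In the authors' deposited table both GAP1 and AGP1 were listed only with rapamycin, at fold enrichments of 86.4 and 341. These permease genes, unlike ARO9 and ARO10, were listed with no called difference between genotypes.

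Of the 5 genes for GATA factors and their regulator Ure2, 4 rose and 0 fell with rapamycin in the wild type, against 34.8% and 33.9% of all tested genes. DAL80, a GATA repressor, rose most (6.75 ± 0.25; edgeR adjusted p = 9.2e-07), and the activator genes GAT1 (1.04 ± 0.17; 0.000778) and GLN3 (0.59 ± 0.10; 0.000995) rose with it. With rapamycin, GAT1 was higher in the deletion, at 38.8 and 33.2 CPM per kb against 20.9 and 28.4 in the wild type (0.55 ± 0.16; edgeR adjusted p = 0.0373). GLN3 was lower in the deletion with rapamycin (-0.41 ± 0.10; edgeR adjusted p = 0.0187), as was URE2, which encodes the inhibitor of Gln3 (-0.29 ± 0.08; 0.033), and DAL80 was higher (0.51 ± 0.13; 0.025). GZF3 was also called higher, with means of 44.2 CPM per kb in the deletion and 32.7 in the wild type. Of the 5 genes, 3 were thus higher and 2 lower, against 14.4% and 13.5% of all tested genes. GAT1, GLN3, URE2 and DAL80 each lost the call without either deletion rapamycin library and without other single libraries, with adjusted p of up to 0.176, 0.115, 0.201 and 0.121.

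Many genes for making aromatic amino acids were also higher with rapamycin and, with rapamycin, lower in the deletion. Of 12 genes of aromatic synthesis, 8 rose and 2 fell with rapamycin in the wild type, against 34.8% and 33.9% of all tested genes, with a median log2 fold change of 0.95. Among them, ARO3, for the entry enzyme of the shikimate pathway, rose (1.28 ± 0.10; edgeR adjusted p = 1.08e-05) and ARO7, for chorismate mutase, fell (-1.46 ± 0.11; 1.01e-05). In the deletion with rapamycin, 0 of the 12 were higher and 7 were lower than in the wild type, against 14.4% and 13.5% of all tested genes, with a median of -0.30. The lower genes included the tryptophan pathway genes TRP4 (-0.77 ± 0.12; edgeR adjusted p = 0.0038), TRP3 (-0.65 ± 0.11; 0.00513) and TRP2 (-0.63 ± 0.10; 0.00425), with ARO3 (-0.66 ± 0.09; 0.00262). These decreases are under the 1.70 and 1.58 by which ARO9 and ARO10 fell on the same log2 scale. Of the 12 genes, 7 were listed with rapamycin and 0 untreated in the authors' deposited table, against 9.79% and 6.61% of the entries.

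The genes whose profile was most like that of each gene were found among those with a mean of at least 10 CPM and a range of group means of at least 1 log2 unit, by Pearson correlation of log2 CPM over the 8 libraries. These are 4 groups of 2, so the correlation mainly follows the group means, and it is a description. For ARO9 the 5 most alike were COX5A (r = 0.987), SCP1 (0.986), AVT2 (0.979), ATP2 (0.972) and MEF2 (0.962), followed by ARO10 (0.960). For ARO10 they were COR1 (0.989), TOH1 (0.983), COX4 (0.978), SCP1 (0.974) and COX8 (0.972), and for ARO80 they were ATP18 (0.999), CYC1 (0.986), SSA3 (0.985), MUB1 (0.982) and MUM3 (0.981). By Spearman correlation 2, 0 and 1 of these 5 stayed among the 5 most alike. ARO9 was at rank 20 for ARO10. ARO80 had r = 0.876 with ARO9 and 0.896 with ARO10, at ranks 58 and 106. ARO80 itself, with group means from 49.2 to 75.1 CPM, did not reach the range of 1 log2 unit. Its ranks, and the genes most like it, are thus set against genes with a wider range than its own. Because ARO9 and ARO10 were chosen together for low levels in the untreated deletion, a likeness between them is favoured by the choice.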

How the data were processed

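The deposited RNA values are raw read counts per gene, made by the authors. The submitters' processing notes name Trimmomatic 0.38, STAR 2.5.3a, featureCounts 1.6.3, DESeq2 1.24.0, Bowtie2 2.3.4.3, MACS2 2.2.1 and the build sacCer3; what each did, and whether counting used strand, is not given in the sources used here. The FLAG-Rph1 lists hold, per the file headers, a fold enrichment per gene, with neither the control nor the pooling of replicates stated. The sheet named Control was taken as untreated.

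Counts were fitted with edgeR 4.0.16 in R 4.3.3 over all 8 libraries: filterByExpr with a minimum count of 10, TMM scaling, glmQLFit and glmQLFTest with a mean per group, Benjamini-Hochberg over 6169 genes, calls under 0.05. The code was tested on simulated counts. Total counts per library were 18037199 to 24769193, and replicates differed by more than counting noise. Symbols, lengths and coordinates came from the R64 gene table, which matched 5956 entries. The alternatives tried were RLE and total scaling, no filter, DESeq2 1.42.0, only the groups compared, a replicate block, and leaving out each library; the read ratio was added after the data were seen. The 3 genes and the pathway lists were chosen with earlier results of these data known. Named were the 3 genes, ESBP6, ARO8 and GAT1, up to 4 genes per list and comparison by smallest p, neighbours, and the 5 most alike genes. A planned search of promoters for motifs was not made, as no sequence was used here.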

Additional observations from a re-analysis of the deposited data

Results flagged for a closer look

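Among the other pathway genes, 8 had a rapamycin change that differed between genotypes by the interaction test (edgeR, adjusted over all 6169 genes), where 13.1% of tested genes were called. Each value is the deletion's log2 rapamycin change less that of the wild type. ALD2, an aldehyde dehydrogenase gene, had -2.91 (edgeR adjusted p = 0.00554), from a rise of 6.68 in the wild type and 3.76 in the deletion, and its call was held without any 1 library. ADH5, an alcohol dehydrogenase gene, had -1.58 (edgeR adjusted p = 0.00878), from rises of 3.63 and 2.05, a call lost without deletion rapamycin replicate 1 (0.0518). ALD6 had 1.29 (edgeR adjusted p = 0.0299), from changes of -3.47 and -2.18. The permease gene TAT1 had 1.51 (edgeR adjusted p = 0.0359), from -3.07 and -1.56, and the acetyltransferase gene ATF2 had 0.88 (0.0489), from -3.23 and -2.35. The tryptophan synthesis genes TRP3, TRP2 and TRP1 had -0.65, -0.57 and -0.44 (edgeR adjusted p = 0.0351, 0.0404 and 0.0394), from rises of 1.36, 0.97 and 0.93 in the wild type and 0.71, 0.40 and 0.50 in the deletion. The calls of ALD6, TAT1, ATF2, TRP1, TRP2 and TRP3 were each lost without several single libraries, with adjusted p from 0.0535 to 0.168.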

How the results depend on the processing

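ARO9 with rapamycin in the deletion ranged from 0.57 to 0.77 without 1 library, and ARO80 in deletion against wild type with rapamycin from -0.50 to -0.42 (call lost without deletion rapamycin replicate 1). ARO80 with rapamycin in the deletion reached 0.45 under scaling by totals. The other changes tested for ARO9, ARO10 and ARO80 held under all 14 alternatives. In the untreated comparison, leaving out 1 library gave -1.63 to -1.13 for ARO9, -1.71 to -1.03 for ARO10 and -0.16 to -0.05 for ARO80, which was -0.04 under totals. The differences between rapamycin changes then ran from -0.58 to -0.07 for ARO9, from -0.55 to 0.13 for ARO10 and from -0.44 to -0.33 for ARO80; that of ARO10 changed sign without wild type untreated replicate 2.

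The number of genes called in untreated deletion against wild type was 457, and 702 with DESeq2, 14 with only the groups compared and 54 to 498 without 1 library. For the interaction it was 809, and 96 to 1020 without 1 library; for deletion against wild type with rapamycin it was 1725, and 647 to 1994. Scaling by totals moved the share of higher among called genes from 50.6% to 70% and from 49.9% to 77.4% for rapamycin in wild type and deletion, and from 51.7% to 62.9% and from 65.9% to 81.9% for deletion against wild type with rapamycin and untreated. Replicate numbers were not taken as pairing, since the labels state none; deviations of same-numbered libraries correlated at 0.26 to 0.556, and a replicate block gave 1102 calls untreated, with 54.5% higher, and 1648 for the interaction, and kept every call of the 3 genes. Over the alternatives, 649 of 734 values of other named genes kept their call.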
